A study of Danio rerio with 6 samples.

Results

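The genes described here encode growth factors, their receptors and the kinases and phosphatases that pass receptor signals on in the early zebrafish embryo. They were taken by name: every row of the count table whose Ensembl identifier carried, in the gene lists published with the study, a symbol of the wnt, fzd, bmp, fgf, tgfb, acvr, smad, notch, jag, ptch, gli, eph, efn, mapk, map2k, map3k, dusp or ptp type, plus ngfb, with bmp2b and bmp4 left out. This gave 59 of the 32054 genes in the table. Of the 59 members, 20 had a symbol only in the rows of a list sorted by significance in the same comparison as here (the significance-ordered members), so their difference between the groups put them on the list, and their values are given as a description with no test. The other 39 stood in lists sorted by gene identifier (the identifier-ordered members), 4 of them in both kinds of list, and this comparison did not decide their presence. Wider counts over the whole families, found through the reference gene names, are given further down.

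RNA-seq was performed on 3 libraries of mondoa-mo embryos and 3 libraries of mondoa-mis embryos of Danio rerio. mondoa-mo is a morpholino oligonucleotide that blocks translation of mondoa, the gene of a glucose-sensing transcription factor, and mondoa-mis is the same oligonucleotide with mismatched bases. Embryos of both groups were injected and were sampled at the same age, labelled 4 hpf (hours post fertilisation), when the mondoa-mis controls were at sphere stage, a late blastula stage just before epiboly. The labels name no strain, transgene or tissue-specific driver. Each sample was a pool of whole embryos, and the stage that the mondoa-mo embryos had reached at that age cannot be told apart from other effects of the injection. Each library held 20685326 to 32100726 counts. The labels do not say that replicates came from separate injections, so p-values measure the spread between these libraries. That spread was wider among mondoa-mo libraries, whose biological coefficient of variation was 0.111, than among mondoa-mis libraries, at 0.0193. The targeted gene itself (MLXIP in the reference names, ENSDARG00000059474) had 298, 327 and 349 CPM (a gene's counts as a rate of all counts in the library, with library sizes normalised by TMM) in mondoa-mo embryos and 278, 273 and 267 CPM in mondoa-mis embryos, a log2 fold change of 0.25 (SE 0.0577, edgeR adjusted p = 0.0074). Since the oligonucleotide blocks translation, the transcript level does not check the knockdown.

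Growth factors of the FGF, Wnt, TGF-beta and BMP families are secreted ligands that bind receptors on neighbouring cells. FGF and Eph receptors are tyrosine kinases, and FGF receptors signal largely through Ras and a relay of MAP kinases in which a MAP3K phosphorylates a MAP2K and that in turn a MAPK such as ERK, p38 or JNK. Activin-type and BMP receptors phosphorylate Smads directly, Frizzled proteins receive Wnts, and Notch is cut on contact with a Delta or Jagged ligand, which frees its intracellular part for the nucleus. Dual-specificity and tyrosine phosphatases reverse these phosphorylations. In the zebrafish blastula, maternal mRNA of such components is still present while the zygotic genome comes on, and FGF, Nodal, BMP and Wnt signals pattern the blastoderm before and during gastrulation.

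In what follows levels are CPM, log2 fold changes are mondoa-mo over mondoa-mis, and a gene is said to have risen or fallen where edgeR's quasi-likelihood test gave an adjusted p under 0.05, with the adjustment over all 15511 genes with enough counts to be tested. By this rule 32.3% of all genes tested changed, 16.9% being higher and 15.4% lower in mondoa-mo embryos, so a single changed gene was common at this stage. In 47.8% of genes tested every library of one group lay above every library of the other. Of the 59 members 52 were tested. Among the 39 identifier-ordered members 32 were tested and 8 changed, which is 25%, against 32.3% of all genes. Of these 8, 1 rose and 7 fell. Their median log2 fold change over the 32 genes was -0.02, against 0.00 over all genes tested, and 16 of the 32, or 50%, had groups without overlap, close to the 47.8% of all genes. Both shares moved with single libraries. Without mondoa-mo replicate 3, 14 of 33 identifier-ordered members changed, or 42.4%, against 36.9% of all genes. Without mondoa-mis replicate 1 or replicate 2, 5 of 33 changed, or 15.2%, against 20.7% and 19.8% of all genes. The members' share was thus below that of all genes with all libraries and above it without mondoa-mo replicate 3, and also without mondoa-mo replicate 1 (31.2% against 29.8%) and without mondoa-mis replicate 3 (21.2% against 20.1%). The 20 significance-ordered members all passed the same rule, as their selection implies, 13 being higher and 7 lower in mondoa-mo embryos. The plot of log2 fold changes shows both sets.

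**Figure D1:**
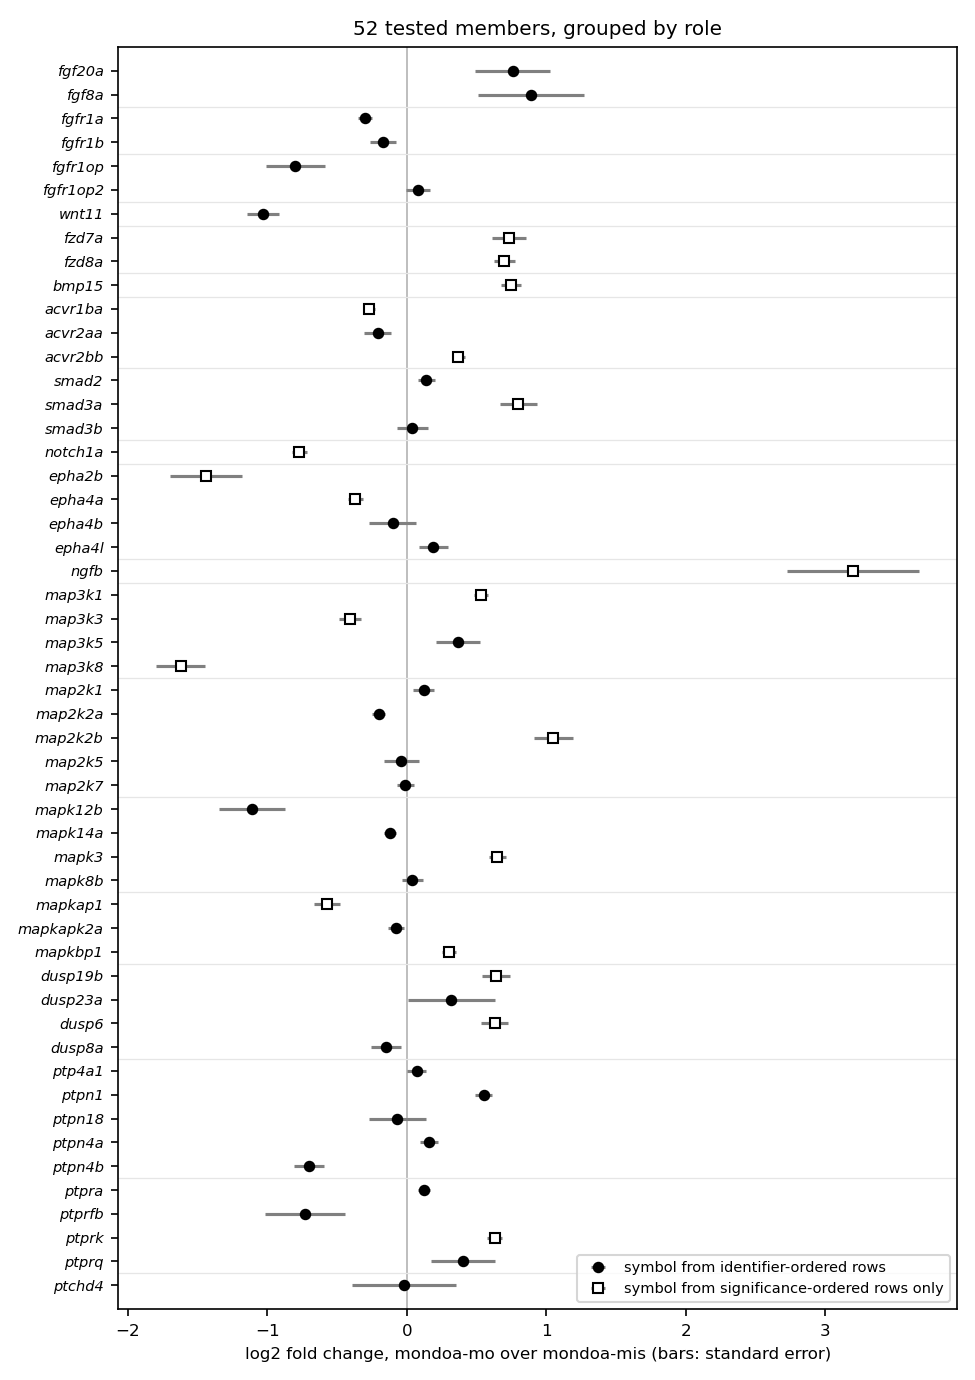
Log2 fold change, mondoa-mo over mondoa-mis, of the 52 tested members (horizontal axis, with the standard error as a bar), grouped by role with the symbols down the page. Filled circles are the identifier-ordered members, most of which sit close to 0, and open squares are the significance-ordered members, which the comparison itself selected. ngfb stands far to the right, at 3.20.

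Among the Wnt ligands and receptors, wnt11 fell and the Frizzled genes on the list were higher. wnt11 (ENSDARG00000004256) encodes a Wnt that acts through the non-canonical pathway in gastrulation movements and is listed as wnt11f2 in the reference names. It had 10.6, 13.2 and 11 CPM in the mondoa-mo libraries, against 23.8, 26.3 and 20.8 CPM in the mondoa-mis libraries. Every mondoa-mo library lay well below every mondoa-mis library. The log2 fold change was -1.03 (SE 0.114, adjusted p = 1.1e-04), and leaving out any one library gave values between -1.14 and -0.95. fzd7a, a receptor of Wnt11-type and other Wnt signals, had 54.2, 44.2 and 66.5 CPM in mondoa-mo embryos and 34, 32.7 and 32.8 CPM in mondoa-mis embryos, a log2 fold change of 0.73. fzd8a was also higher, averaging 31.1 ± 1.09 CPM in mondoa-mo and 19.2 ± 1.05 CPM in mondoa-mis embryos (SD, n = 3 each), a log2 fold change of 0.70. Both Frizzled genes were significance-ordered members. Outside the list, FZD7 (ENSDARG00000027589) averaged 141 CPM in mondoa-mo and 136 CPM in mondoa-mis embryos, more than fzd7a, and did not pass the test (adjusted p = 0.41). FZD8 (ENSDARG00000038569) did not pass it either (adjusted p = 0.12), while fzd6 rose. The 2 other Wnt ligands of the list, wnt7ab and wnt8b, had at most 2 counts in any library and were not tested.

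Of the FGF receptor genes fgfr1a fell slightly. It encodes the FGF receptor 1 kinase and had 157, 155 and 146 CPM in mondoa-mo embryos, against 193, 185 and 185 CPM in mondoa-mis embryos. The groups were far apart relative to their spread, and the gene fell by a log2 fold change of -0.30 (SE 0.0471, adjusted p = 0.001). Its paralogue fgfr1b had 14.3, 12.5 and 14.2 CPM in mondoa-mo and 15.9, 15.9 and 14.4 CPM in mondoa-mis embryos. For fgfr1b the groups came within a narrow gap of each other and the difference did not pass the test (log2 fold change -0.17, 95% interval -0.35 to 0.01, adjusted p = 0.18). The ligand genes of the list were weakly expressed, and the 2 that were tested had positive log2 fold changes that did not pass the test. fgf20a had 0.896, 1.38 and 1.25 CPM in mondoa-mo and 0.695, 0.766 and 0.57 CPM in mondoa-mis embryos, without overlap, and missed the threshold (log2 fold change 0.76, SE 0.269, adjusted p = 0.052). It passed without mondoa-mo replicate 1, with an adjusted p of 0.022. fgf8a, a ligand of the embryonic margin in gastrulation, had 0.544, 0.553 and 0.96 CPM in mondoa-mo and 0.286, 0.298 and 0.523 CPM in mondoa-mis embryos. It had enough counts in every library of a group only for mondoa-mo, so its log2 fold change of 0.89 (SE 0.379) is a description. Another FGF8 gene outside the list, ENSDARG00000039615, was far more abundant, averaging 63.1 CPM in mondoa-mo and 71 CPM in mondoa-mis embryos. That gene did not pass the test (log2 fold change -0.17, adjusted p = 0.077). fgf6a had at most 3 counts in any library. The receptor gene fgfr3 had 0 counts in all 3 mondoa-mo libraries and 3, 3 and 1 counts in the mondoa-mis libraries, too few for a test or a fold.

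The list holds genes named for their fusion partners in tumours rather than for a role at the receptor. fgfr1op, listed as cep43 in the reference names and encoding a centrosomal protein, had 1.12, 1.15 and 1.5 CPM in mondoa-mo and 2.41, 2.3 and 1.81 CPM in mondoa-mis embryos. The groups did not overlap and it fell by a log2 fold change of -0.80 (SE 0.211, adjusted p = 0.016). The call was lost without mondoa-mis replicate 1 (adjusted p = 0.08) and without mondoa-mis replicate 2 (adjusted p = 0.072), and the DESeq2 Wald test gave an adjusted p of 0.051. fgfr1op2 overlapped between the groups, with a log2 fold change of 0.08 (95% interval -0.09 to 0.25, adjusted p = 0.52).

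**Figure D2:**
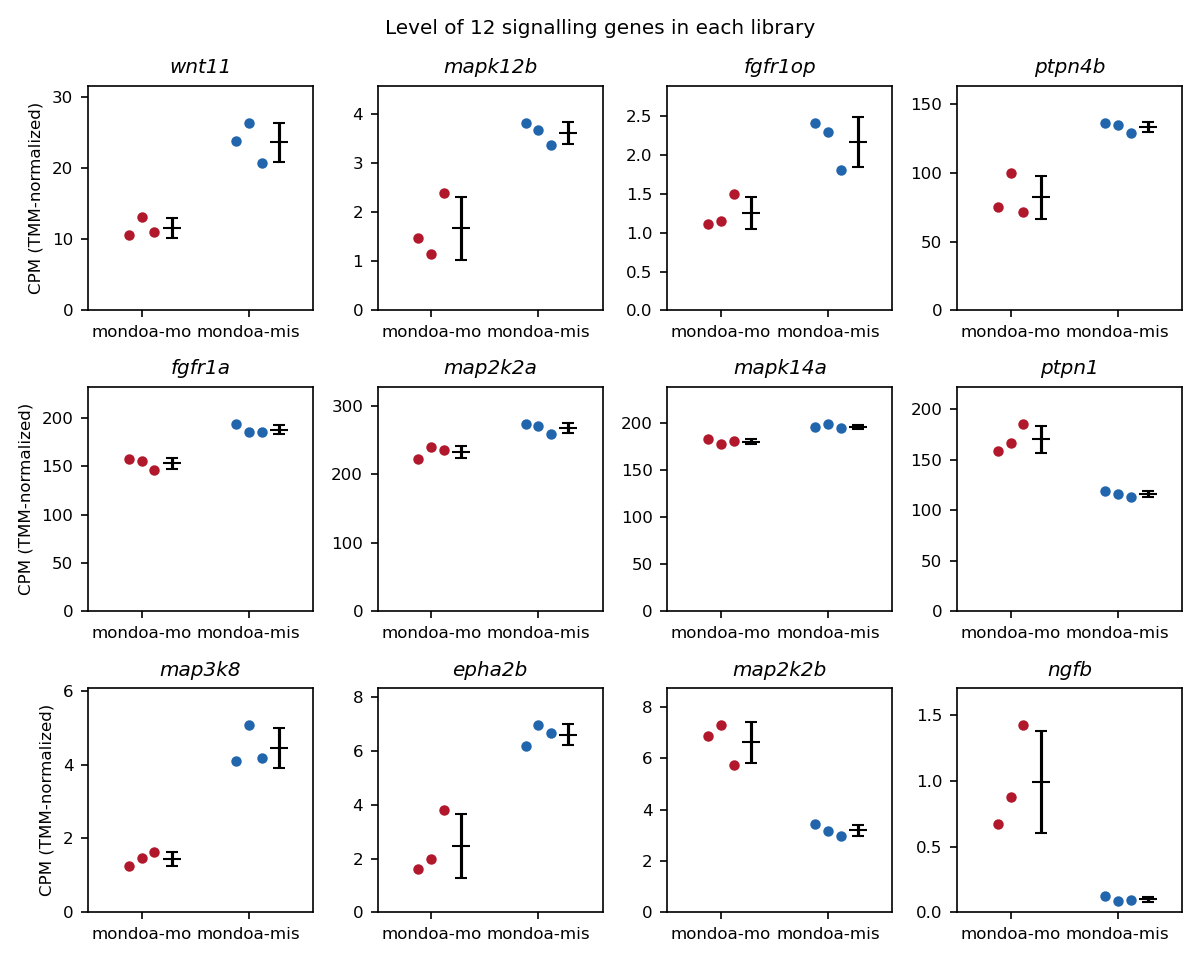
CPM (vertical axis, TMM-normalised, from 0) of 12 members in each library, with the mondoa-mo libraries in red to the left of the mondoa-mis libraries in blue, and the mean with SD as black bars (n = 3 each). The first 8 genes are the identifier-ordered members that changed, with ptpn1 alone higher in mondoa-mo, and the last 4 are the significance-ordered members with a log2 fold change of at least 1 in size. For mapk12b and epha2b mondoa-mo replicate 3 lies nearest to the mondoa-mis libraries, at 2.38 and 3.8 CPM.

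In the activin and BMP branch, receptor genes differed by small amounts in opposite directions. acvr1ba, a type I receptor that transmits Nodal and activin signals, averaged 297 ± 9.56 CPM in mondoa-mo and 357 ± 2.72 CPM in mondoa-mis embryos (SD, n = 3 each), a log2 fold change of -0.27. The type II receptor gene acvr2bb averaged 141 ± 2.88 CPM in mondoa-mo and 109 ± 2.04 CPM in mondoa-mis embryos, a log2 fold change of 0.37. Both were significance-ordered members. acvr2aa, another type II receptor gene, overlapped between the groups, with 83, 91.2 and 66.3 CPM in mondoa-mo and 96.4, 93.3 and 88.6 CPM in mondoa-mis embryos (log2 fold change -0.21, adjusted p = 0.12). Without mondoa-mo replicate 2 its adjusted p was 0.031. bmpr2a, a BMP type II receptor gene, had 11 counts or fewer in every library and was not tested. The ligand gene bmp15, known as an oocyte factor, had 64.2, 75 and 70.7 CPM in mondoa-mo and 39.3, 41.7 and 43.4 CPM in mondoa-mis embryos, a log2 fold change of 0.75. It was a significance-ordered member.

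Smad2 and Smad3 carry the Nodal and activin signal to the nucleus. smad2 was among the most abundant members, with 493, 491 and 427 CPM in mondoa-mo and 437, 435 and 412 CPM in mondoa-mis embryos, and mondoa-mo replicate 3 lay inside the range of the controls. Its log2 fold change was 0.14 (SE 0.059, adjusted p = 0.1), and 0.20 with an adjusted p of 0.0035 without that library. smad3b had 8.48, 8.98 and 7.68 CPM in mondoa-mo and 7.77, 7.83 and 8.79 CPM in mondoa-mis embryos, a log2 fold change of 0.04 with a 95% interval of -0.17 to 0.26. Its paralogue smad3a, a significance-ordered member, had 10.1, 12.3 and 12.8 CPM in mondoa-mo and 5.85, 7.57 and 6.65 CPM in mondoa-mis embryos, a log2 fold change of 0.80.

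notch1a encodes a Notch receptor and was one of the members with the highest level per kilobase in mondoa-mis embryos. It had 343, 325 and 302 CPM in mondoa-mo embryos, against 564, 550 and 537 CPM in mondoa-mis embryos, a log2 fold change of -0.77. As a significance-ordered member it was selected by this difference. The groups were separated by far more than the spread within either.

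The Eph receptor kinases mediate contact-dependent repulsion and adhesion between cells. epha2b, a significance-ordered member, had 1.6, 1.98 and 3.8 CPM in mondoa-mo and 6.17, 6.94 and 6.65 CPM in mondoa-mis embryos, a log2 fold change of -1.44. mondoa-mo replicate 3 was the highest of its group, and without single libraries the value lay between -1.89 and -1.17. epha4a, also a significance-ordered member, had 86.6, 87.4 and 78.9 CPM in mondoa-mo and 109, 110 and 107 CPM in mondoa-mis embryos, a log2 fold change of -0.37. The related epha4b, with 3.01, 3.92 and 3.38 CPM in mondoa-mo and 4.01, 3.02 and 3.95 CPM in mondoa-mis embryos, overlapped between groups (log2 fold change -0.10, adjusted p = 0.69). epha4l did not pass the test either (log2 fold change 0.19, adjusted p = 0.19). epha7 was sparse, with 38, 13 and 7 counts in mondoa-mo and 5, 7 and 7 counts in mondoa-mis libraries, and efnb1, the ephrin ligand gene of the list, had at most 4 counts in any library. Neither was tested. ptchd4, which encodes a protein with a Patched domain, had at most 1.1 CPM in any library, with a log2 fold change of -0.02 (95% interval -0.75 to 0.71) that changed sign under 3 of the 13 alternatives.

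ngfb, the gene of nerve growth factor, had the largest log2 fold change of the list. It had 0.672, 0.875 and 1.42 CPM in mondoa-mo and 0.123, 0.0851 and 0.0951 CPM in mondoa-mis embryos, that is 21, 19 and 34 counts against 3, 2 and 2 counts. The mondoa-mis libraries were all at or below a floor of 3 counts per library, so that the level was at least 7.55-fold higher in mondoa-mo embryos on that floor, while the fitted log2 fold change of 3.20 depends on the prior count. ngfb was a significance-ordered member.

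The upstream kinases of the MAP kinase relay differed in direction from gene to gene. map3k8 (Tpl2 in mammals, an activator of MEK) had 1.25, 1.47 and 1.63 CPM in mondoa-mo and 4.09, 5.06 and 4.18 CPM in mondoa-mis embryos, a log2 fold change of -1.62. It lay lower in every mondoa-mo library than in any mondoa-mis library. map3k3 averaged 23.5 ± 1.86 CPM in mondoa-mo and 31.2 ± 1.22 CPM in mondoa-mis embryos, a log2 fold change of -0.41. map3k1 averaged 197 ± 7.88 CPM in mondoa-mo and 137 ± 5.54 CPM in mondoa-mis embryos, a log2 fold change of 0.53. These 3 were significance-ordered members. map3k5 (ASK1 in mammals, a kinase of stress signalling) was tested independently of its selection and missed the threshold, with 4.96, 6.68 and 4.63 CPM in mondoa-mo and 4.33, 4.13 and 4.09 CPM in mondoa-mis embryos (log2 fold change 0.37, SE 0.158, adjusted p = 0.1). Without mondoa-mo replicate 3 its adjusted p was 0.043.

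Among the MAP2K genes the MEK2 pair differed in opposite directions. map2k2a, the abundant copy, had 223, 240 and 236 CPM in mondoa-mo and 273, 270 and 259 CPM in mondoa-mis embryos, and fell by a log2 fold change of -0.20 (SE 0.0464, adjusted p = 0.009). The adjusted p was 0.056 without mondoa-mis replicate 1 and 0.055 without mondoa-mis replicate 2. map2k2b, the scarce copy and a significance-ordered member, had 6.85, 7.28 and 5.72 CPM in mondoa-mo and 3.43, 3.15 and 2.99 CPM in mondoa-mis embryos, a log2 fold change of 1.05. map2k1 (MEK1), map2k5 and map2k7, which act on ERK, ERK5 and JNK, had log2 fold changes of 0.12, -0.04 and -0.01, and none passed the test (adjusted p of 0.26, 0.83 and 0.89). The 95% interval for map2k7 was -0.13 to 0.10.

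Of the terminal MAP kinases, both p38 genes on the list fell. mapk12b (p38 gamma) had 1.47, 1.15 and 2.38 CPM in mondoa-mo and 3.8, 3.66 and 3.37 CPM in mondoa-mis embryos, a log2 fold change of -1.11 (SE 0.234, adjusted p = 0.0048). mapk14a (p38 alpha) had 183, 178 and 181 CPM in mondoa-mo and 196, 199 and 195 CPM in mondoa-mis embryos. Its fall was small, at a log2 fold change of -0.12 (SE 0.0411, adjusted p = 0.046), and the adjusted p was 0.14, 0.19 and 0.14 without mondoa-mis replicates 1, 2 and 3. The DESeq2 Wald test gave 0.06 for the same gene. mapk3 (ERK1), a significance-ordered member, had 126, 131 and 147 CPM in mondoa-mo and 85.6, 86.9 and 84.7 CPM in mondoa-mis embryos, a log2 fold change of 0.65. mapk8b (JNK1) did not pass the test (log2 fold change 0.04, 95% interval -0.11 to 0.19). mapkapk2a, the p38-activated kinase MK2 and the most abundant member per kilobase, overlapped between the groups at 432 ± 35.6 CPM in mondoa-mo and 458 ± 6.24 CPM in mondoa-mis embryos (SD, n = 3 each, adjusted p = 0.3). Of the genes named for binding MAP kinases, mapkap1 (Sin1, a subunit of the mTORC2 complex) had a log2 fold change of -0.57 and mapkbp1 one of 0.30, both being significance-ordered.

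Dual-specificity phosphatases switch MAP kinases off, and dusp6, which acts on ERK, is widely used as a readout of FGF signalling. dusp6 had 58.1, 55.5 and 73.7 CPM in mondoa-mo and 39.5, 41.5 and 39.6 CPM in mondoa-mis embryos, a log2 fold change of 0.63. dusp19b averaged 40.2 ± 5.95 CPM in mondoa-mo and 25.8 ± 0.237 CPM in mondoa-mis embryos, a log2 fold change of 0.64. Both were significance-ordered members. The identifier-ordered dusp8a and dusp23a overlapped between the groups, with log2 fold changes of -0.15 (adjusted p = 0.3) and 0.32 (adjusted p = 0.47).

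Among the tyrosine phosphatases ptpn1 rose and ptpn4b fell. ptpn1 (PTP1B, which dephosphorylates the insulin receptor and other receptor kinases) had 159, 167 and 185 CPM in mondoa-mo and 119, 116 and 113 CPM in mondoa-mis embryos. It was the only identifier-ordered member that rose, by a log2 fold change of 0.55 (SE 0.0604, adjusted p = 1.0e-04). ptpn4b, a phosphatase with FERM and PDZ domains, had 75.1, 100 and 71.4 CPM in mondoa-mo and 136, 135 and 129 CPM in mondoa-mis embryos, a log2 fold change of -0.70 (SE 0.106, adjusted p = 7.4e-04). mondoa-mo replicate 2 was the highest of its group and still below every control. The paralogue ptpn4a had 101, 116 and 101 CPM in mondoa-mo and 97.1, 94.3 and 92.1 CPM in mondoa-mis embryos, without overlap, and missed the threshold (log2 fold change 0.16, adjusted p = 0.073). The adjusted p was 0.039 without mondoa-mo replicate 1 and 0.033 without mondoa-mo replicate 3. ptpn18 and ptp4a1 had log2 fold changes of -0.07 and 0.07 and overlapped between the groups.

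Of the receptor-type phosphatases, ptprk, a significance-ordered member, had 189, 169 and 174 CPM in mondoa-mo and 116, 116 and 111 CPM in mondoa-mis embryos, a log2 fold change of 0.63. ptprfb, of the LAR type, had 3.74, 4.01 and 9.35 CPM in mondoa-mo and 9.16, 9.28 and 9.7 CPM in mondoa-mis embryos, mondoa-mo replicate 3 alone lying at the level of the controls. With all libraries the log2 fold change was -0.73 and missed the threshold in edgeR's test (SE 0.285, adjusted p = 0.076), while DESeq2 and voom with group weights called it (adjusted p of 0.024 and 0.0048). Without mondoa-mo replicate 3 edgeR gave -1.28 (adjusted p = 4.3e-05). ptpra, with 142, 138 and 141 CPM in mondoa-mo and 131, 128 and 129 CPM in mondoa-mis embryos, missed the threshold narrowly (log2 fold change 0.12, adjusted p = 0.057), and had an adjusted p of 0.045 without mondoa-mo replicate 3. ptprq did not pass the test (log2 fold change 0.40, adjusted p = 0.21).

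Members were also ranked by the p of a DESeq2 test over all genes. The last inside the rows read of the significance-sorted list were ngfb at rank 1747 and map3k3 at rank 1901. The next members beyond them, both identifier-ordered, were mapk12b at rank 2208 and map2k2a at rank 2583.

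Levels were set against each other per kilobase of gene length, as the count table gives that length. In mondoa-mo embryos, mean levels of the members with at least 1 count ran from 0.0038 CPM per kilobase for wnt8b to 131 CPM per kilobase for mapkapk2a, against 0.00759 and 139 CPM per kilobase in mondoa-mis embryos. The Nodal and activin transducers smad2 and acvr1ba, at 91.6 and 73.8 CPM per kilobase in mondoa-mo and 83.3 and 88.7 CPM per kilobase in mondoa-mis embryos, stood near the top together with map2k2a, at 73.2 CPM per kilobase in mondoa-mo and 83.9 CPM per kilobase in mondoa-mis embryos. The ligand genes ranged widely. bmp15 had 29.8 CPM per kilobase in mondoa-mo and 17.7 CPM per kilobase in mondoa-mis embryos. fgf20a had 1.07 CPM per kilobase in mondoa-mo and 0.613 CPM per kilobase in mondoa-mis embryos. wnt11, at 5.45 CPM per kilobase in mondoa-mo and 11.1 CPM per kilobase in mondoa-mis embryos, lay between these. dusp19b was left out of this comparison because the length listed for it, 50337 bases, is far beyond that of the other members.

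**Figure D3:**
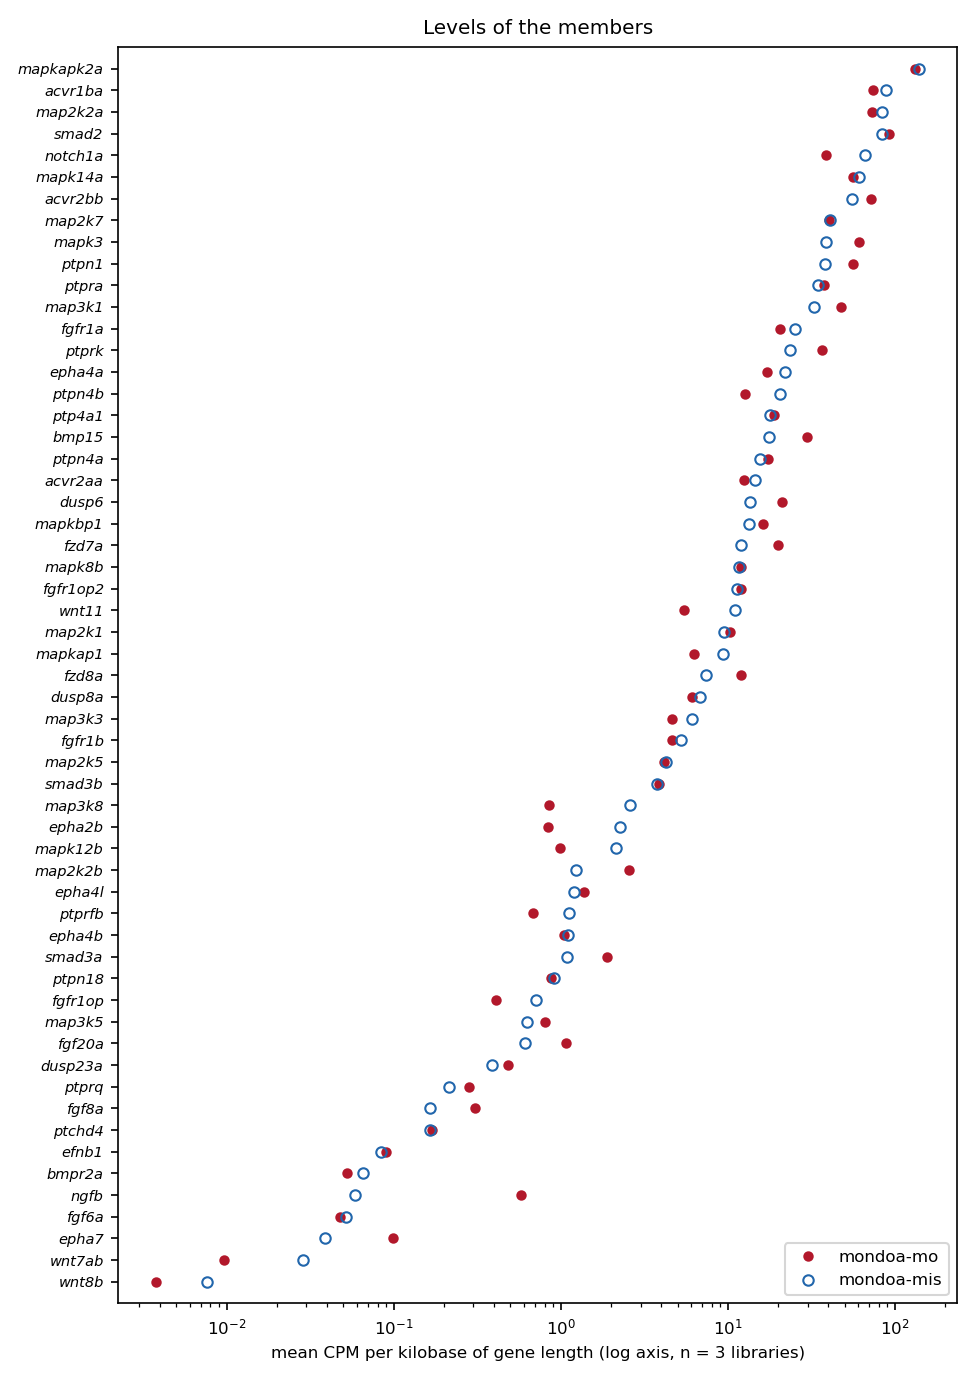
Mean CPM per kilobase of gene length (horizontal log axis, n = 3 libraries) of the members, ordered by their level in mondoa-mis embryos, with filled red points for mondoa-mo and open blue points for mondoa-mis. dusp19b is left out for its odd listed length and fgfr3 because it had 0 counts in mondoa-mo. Levels span from mapkapk2a at the top, at 131 and 139 CPM per kilobase, to wnt8b at the bottom, and the shift between groups is small beside this span for most genes.

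The list has 5 pairs of close relatives, for which the ratio of counts within a library needs no scaling between libraries. Since uniquely mapped reads were counted, reads that fit both copies were not assigned to either. The ratio of map2k2a to map2k2b was 32.5, 33 and 41.2 in mondoa-mo and 79.4, 85.7 and 86.3 in mondoa-mis embryos, a difference of -1.24 in mean log2 ratio. The ratio of ptpn4a to ptpn4b was 1.34, 1.17 and 1.41 in mondoa-mo and 0.714, 0.7 and 0.714 in mondoa-mis embryos, a difference of 0.88, so that ptpn4a had the more counts in the morphants and ptpn4b in the controls. The ratio of smad3a to smad3b was 1.19, 1.36 and 1.67 in mondoa-mo and 0.753, 0.967 and 0.757 in mondoa-mis embryos, a difference of 0.77. In these 3 pairs the groups did not overlap. The groups overlapped for the ratio of fgfr1a to fgfr1b (difference -0.12) and for that of epha4a to epha4b (difference -0.28). map2k2b, smad3a and epha4a were selected by this comparison, so that the ratios of their pairs are a description with no test. In the ptpn4 pair both genes were identifier-ordered. An exact permutation test, two-sided, gave p = 0.1 for it, the smallest that 3 libraries against 3 allow. The test thus could not pass a threshold of 0.05, even before any adjustment over pairs. For the fgfr1 pair the same exact test gave p = 0.3.

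**Figure D4:**
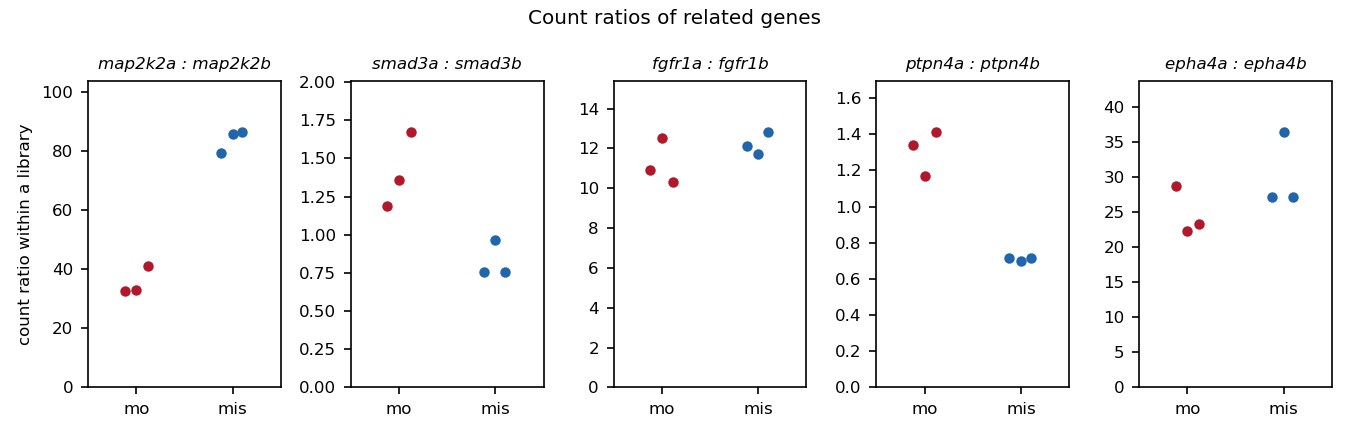
Ratio of counts of related genes within each library (vertical axis, linear, from 0) for 5 pairs, with mondoa-mo libraries (mo, red) left of mondoa-mis libraries (mis, blue), 1 point per library. The groups are apart for map2k2a to map2k2b, smad3a to smad3b and ptpn4a to ptpn4b, and overlap for the fgfr1 and epha4 pairs.

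Since the rows read of the study's lists cover only part of each family, the name pattern was also applied to the reference gene names. These carry a symbol for 28986 rows. This gave 327 genes, members included, of which 210 were tested. Of the 210, 59 changed, or 28.1% against the 32.3% of all genes, 27 being higher and 32 lower in mondoa-mo embryos, with a median log2 fold change of 0.00. Without one of the mondoa-mis libraries 35 to 38 of these genes changed, and the share of all genes that changed was then 19.8% to 20.7%. Among the 158 that were not members, 31 changed, or 19.6%. The choice of members had taken genes that changed out of this remainder, so its share is not set against that of all genes. The Wnt and Frizzled genes had 6 changed of 13 tested (46.2%) and the MAP kinase cascades 16 of 43 (37.2%). The TGF-beta, BMP, activin and Smad genes had 12 of 37 (32.4%), the dual-specificity phosphatases 5 of 16 (31.2%) and the FGF genes 5 of 19 (26.3%). Changed genes went in both directions in each of these families. The 16 include mapk15, which had enough counts in every library of a group only for mondoa-mo. Of 20 Eph and ephrin genes 4 changed (20%), all lower in mondoa-mo embryos (epha2a and ephb4a in addition to epha2b and epha4a). Of 8 Notch and Jagged genes 2 changed (25%), and of 6 Patched and Gli genes 1 (16.7%). These families were formed by name alone, whatever the role of the protein. JAGN1 thus counts among the Notch and Jagged genes, and BMP1, BMP2K and TGFBRAP1 among the TGF-beta and BMP genes. Genes whose symbol begins with ptp had the lowest share of the larger families, 7 of 47 or 14.9%. The calls of epha2a and ephb4a were each lost when a single library was left out in 5 of 6 cases, with adjusted p-values up to 0.11 and 0.15. The differences between families were not tested.

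**Figure D5:**
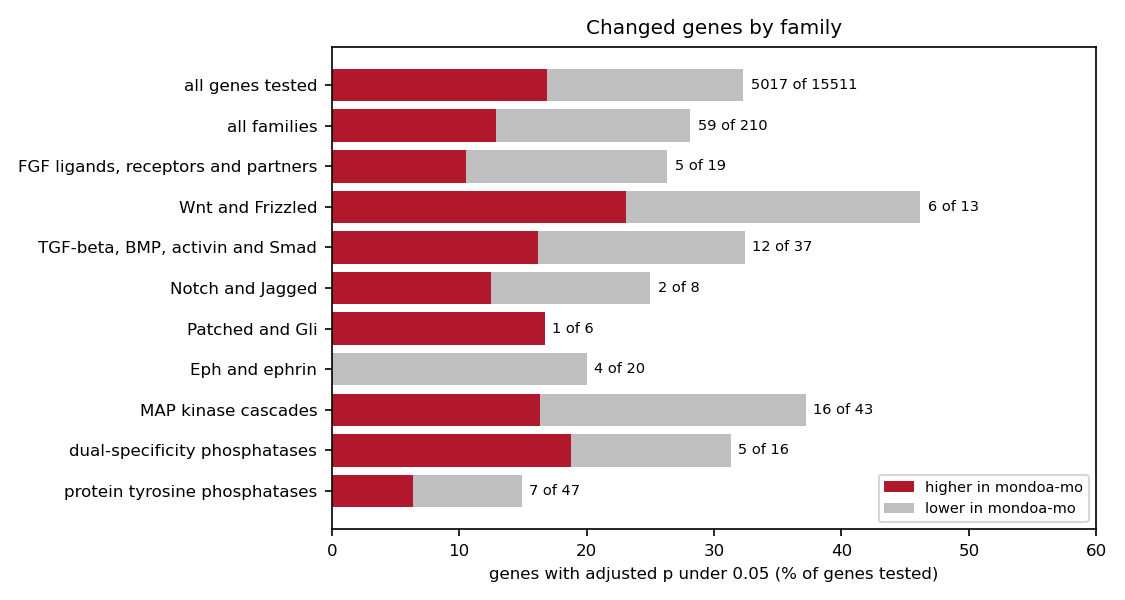
Share of tested genes with an adjusted p under 0.05 (horizontal axis, percent of genes tested) for all genes and for each family by reference symbol, split into genes higher (red) and lower (grey) in mondoa-mo, with the number changed of the number tested beside each bar. All genes stand at 32.3%, all families together at 28.1% and the protein tyrosine phosphatases at 14.9%.

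Outside the members, the family genes with the largest log2 fold changes among those that changed were nearly all expressed at only a few CPM. BMP6, a BMP ligand gene, had 0.576, 0.737 and 1.5 CPM in mondoa-mo and 2.17, 1.79 and 2.23 CPM in mondoa-mis embryos, a log2 fold change of -1.16 (SE 0.316, adjusted p = 0.019). SMAD6 (ENSDARG00000053209), an inhibitory Smad, fell by a log2 fold change of -1.12 (adjusted p = 0.006), and fgf17 by one of -1.06 (adjusted p = 0.041), with mondoa-mo replicate 3 at 3.59 CPM against 1.12 and 1.34 CPM in the other mondoa-mo libraries and 4.5, 3.91 and 3.99 CPM in mondoa-mis embryos. In the other direction mapk15, an atypical MAP kinase gene, had 1.7, 1.38 and 1.34 CPM in mondoa-mo and 0.654, 0.553 and 0.333 CPM in mondoa-mis embryos. It had enough counts in every library of a group only for mondoa-mo, so its log2 fold change of 1.50 is a description. MAPK8IP1 (ENSDARG00000102229), a JNK scaffold, rose by a log2 fold change of 1.33 (adjusted p = 0.019) and fzd6 by one of 0.87 (adjusted p = 0.017). One gene counted here as a Smad, ENSDARG00000021938, is smad9 in the reference names and alg5 in the study's lists, and the 2 sources could not be reconciled. Of these genes fgf17 lost its call without any one of 5 libraries (mondoa-mo replicates 1 and 2 and each mondoa-mis replicate, adjusted p of 0.092 to 0.13). BMP6 lost it without mondoa-mo replicate 2 or mondoa-mis replicate 1 or 3 (0.054 to 0.071), MAPK8IP1 without mondoa-mis replicate 2 or 3 (0.069 and 0.076) and fzd6 without mondoa-mis replicate 1 or 2 (0.074 and 0.063).

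Partners of these genes in the same pathways were followed through a list of 138 genes from textbook knowledge. The list was chosen with earlier results of these data known, so its shares are a description and do not show an excess over all genes. Of these, 119 were tested and 51 changed, or 42.9% against the 32.3% of all genes, 27 being higher and 24 lower in mondoa-mo embryos. The median log2 fold change was 0.05. Without mondoa-mis replicate 1, 32 of them changed, and the share of all genes that changed was then 20.7%. The 51 include szl, her3 and a BAMBI gene, which had enough counts to be tested only through their higher group.

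Around FGF, Ras and ERK, 11 of 28 tested partners changed, or 39.3% against the 32.3% of all genes, 7 rising and 4 falling. Of the ETS factors that respond to FGF, etv5a fell to 114, 128 and 91.7 CPM in mondoa-mo embryos, against 274, 270 and 268 CPM in mondoa-mis embryos (log2 fold change -1.29, SE 0.0956, adjusted p = 9.8e-06). Its paralogue etv5b rose slightly, with 249, 248 and 269 CPM in mondoa-mo and 228, 224 and 236 CPM in mondoa-mis embryos (log2 fold change 0.16, adjusted p = 0.03), and ETV4 did not pass the test (log2 fold change -0.12, adjusted p = 0.76). The call of etv5b was lost with library size alone (adjusted p = 0.095) and without any one mondoa-mis library (0.069 to 0.15). ksr2, a scaffold of the ERK relay, averaged 2.92 CPM in mondoa-mo and 7.25 CPM in mondoa-mis embryos, a fall by a log2 fold change of -1.34 (adjusted p = 0.003). Both KSR1 genes were more abundant, averaging 49.2 to 56.2 CPM in either group, and did not pass the test (adjusted p of 0.41 and 0.82). The receptor adaptor gene frs2b fell by a log2 fold change of -0.60 (adjusted p = 0.0017). fosab, an immediate early gene, rose by a log2 fold change of 1.08 (adjusted p = 3.0e-04), spred2a, an inhibitor of Ras signalling, by 0.92 (adjusted p = 0.022) and the adaptor gene shc1 by 0.60 (adjusted p = 5.3e-05). The call of spred2a was lost without mondoa-mis replicate 1 or 3 (adjusted p of 0.079 and 0.081). Of these ETS genes etv5a was thus lower and etv5b slightly higher in mondoa-mo embryos, while the inhibitors spred2a and il17rd were both higher. il17rd averaged 196 CPM in mondoa-mo and 143 CPM in mondoa-mis embryos (log2 fold change 0.46, adjusted p = 3.6e-04). The inhibitor genes SPRY1, SPRY2, SPRED1 and spred2b did not pass the test.

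Of the Nodal, activin and BMP partners 13 of 21 tested changed, or 61.9% against the 32.3% of all genes, with 5 rising and 8 falling. The 13 include szl and a BAMBI gene, whose values are a description only. szl, a secreted regulator of BMP signalling, had 1.28, 1.11 and 0.876 CPM in mondoa-mo and 0.286, 0.17 and 0.19 CPM in mondoa-mis embryos. It had enough counts to be tested only through its mondoa-mo libraries, so its log2 fold change of 2.31 is a description. id1, a direct target of BMP signalling, rose to 130, 104 and 152 CPM in mondoa-mo embryos, against 62.4, 65.2 and 64.8 CPM in mondoa-mis embryos (log2 fold change 1.01, adjusted p = 1.1e-04). The related genes ID2 and ID3 had negative log2 fold changes that did not pass the test (-0.32 and -0.23, adjusted p of 0.06 and 0.24). lft2, a Nodal antagonist and target, rose by a log2 fold change of 0.93 (adjusted p = 3.4e-04). The related lft1 did not pass the test (log2 fold change 0.17, adjusted p = 0.51). skilb, whose mammalian relative represses Smad-dependent transcription, fell by a log2 fold change of -1.33 (adjusted p = 7.6e-05). BAMBI (ENSDARG00000099677), a decoy receptor, had enough counts in every library of a group only for mondoa-mis. Its log2 fold change of -0.96 is thus a description. That BAMBI gene averaged 0.587 CPM in mondoa-mo and 1.14 CPM in mondoa-mis embryos. The more abundant gene of that symbol, ENSDARG00000055381, averaged 6.88 CPM in mondoa-mo and 8.04 CPM in mondoa-mis embryos. It did not pass the test (log2 fold change -0.22, adjusted p = 0.2). chrd, the BMP antagonist chordin, had 7.42, 5.57 and 15.6 CPM in mondoa-mo and 17.9, 17.9 and 15 CPM in mondoa-mis embryos. It just passed the test (log2 fold change -0.83, adjusted p = 0.049) although mondoa-mo replicate 3 lay within the control range. The DESeq2 Wald test gave 0.15, and without any one library other than mondoa-mo replicate 3 the adjusted p was 0.086 to 0.14. BAMBI (ENSDARG00000099677) was not called by DESeq2 (adjusted p = 0.1) or without any one mondoa-mis library (0.053 to 0.086).

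Of 33 tested Wnt partners 11 changed, 5 rising and 6 falling, a share near that of all genes. ror1, a receptor kinase for non-canonical Wnts, had 42.6, 46.6 and 35.4 CPM in mondoa-mo and 87.2, 88.7 and 85.8 CPM in mondoa-mis embryos (log2 fold change -1.07, SE 0.0871, adjusted p = 1.6e-05). The more abundant ROR2 rose slightly, averaging 165 CPM in mondoa-mo and 146 CPM in mondoa-mis embryos (adjusted p = 0.031). dvl1a, a cytoplasmic transducer downstream of Frizzled, averaged 1.55 CPM in mondoa-mo and 2.96 CPM in mondoa-mis embryos, a fall by a log2 fold change of -0.94 (adjusted p = 0.0026). Its relatives were far more abundant. dvl2 averaged 171 and 183 CPM and did not pass the test (adjusted p = 0.11). DVL3 (ENSDARG00000015707) rose, averaging 232 and 202 CPM (adjusted p = 0.042), with groups that overlapped. GSK3A (ENSDARG00000029501) fell by a log2 fold change of -0.28 (adjusted p = 0.006). Another gene of that symbol, ENSDARG00000015681, averaged 86.9 CPM in mondoa-mo and 84.4 CPM in mondoa-mis embryos and did not pass the test (log2 fold change 0.04, adjusted p = 0.53). NKD1, sp5l and tcf7l1b, feedback or nuclear components of the canonical branch, rose by log2 fold changes of 0.75, 0.62 and 0.50 (adjusted p of 0.013, 0.015 and 0.0054). Without mondoa-mis replicate 1 the adjusted p was 0.06 for NKD1 and 0.07 for sp5l, without mondoa-mis replicate 2 it was 0.07 for NKD1, and without mondoa-mis replicate 3 it was 0.073 for sp5l.

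Around Notch, 10 of 17 tested partners changed, or 58.8% against the 32.3% of all genes, 5 in each direction. The 10 include her3, whose values are a description only. her3, a Hes-type repressor gene, had 0.384, 0.322 and 0.417 CPM in mondoa-mo and 1.8, 1.87 and 1.24 CPM in mondoa-mis embryos. It had enough counts to be tested only through its mondoa-mis libraries, so its log2 fold change of -2.11 is a description. lfng, the gene of a glycosyltransferase that modifies Notch, fell to 27.3, 23.1 and 27.1 CPM in mondoa-mo embryos, against 58.8, 54.4 and 55.7 CPM in mondoa-mis embryos (log2 fold change -1.12, adjusted p = 6.6e-06), and hey2 fell by a log2 fold change of -0.55 (adjusted p = 0.0029). The Hes-type gene her6, the Delta ligand gene dlc and the co-activator gene maml3 rose by log2 fold changes of 1.15, 0.96 and 0.48 (adjusted p of 2.4e-04, 8.3e-05 and 5.1e-05). The receptor notch1a was lower while her6 was higher and her3 lower in mondoa-mo embryos.

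Of the 5 tested Hedgehog partners, 0 changed by edgeR's quasi-likelihood test, 0 had an unadjusted p under 0.05, and DESeq2 and voom also called 0. Without mondoa-mo replicate 3 edgeR called 1. Of 15 tested genes for other receptor kinases and neurotrophin receptors, 6 changed, or 40% against the 32.3% of all genes. pdgfra, a platelet-derived growth factor receptor, rose to 7.42, 9.17 and 8.22 CPM in mondoa-mo embryos, against 4.82, 4.34 and 4.42 CPM in mondoa-mis embryos (log2 fold change 0.86, SE 0.124, adjusted p = 5.7e-04). The insulin receptor genes insra and insrb rose by log2 fold changes of 0.49 and 0.29 (adjusted p of 0.0034 and 5.8e-04). NTRK3 (ENSDARG00000077228), a neurotrophin receptor gene, was the one that fell (log2 fold change -0.49, adjusted p = 0.013), with an adjusted p of 0.052 without mondoa-mis replicate 1 and 0.069 without mondoa-mis replicate 2.

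Markers of embryonic cell layers differed between the same libraries. The summed level of 5 enveloping layer markers, the outer epithelium, was 65.8 to 97.3 CPM in mondoa-mo and 144 to 151 CPM in mondoa-mis embryos. grhl3 made up most of the sum in mondoa-mis embryos, averaging 31.8 CPM in mondoa-mo and 117 CPM in mondoa-mis embryos (log2 fold change -1.87). cldne was higher in the morphants (1.16), and krt4 and krt5 did not pass the test, so the sum does not stand for the layer. That of 4 yolk syncytial layer markers was 16.6 to 29.3 CPM in mondoa-mo and 12.7 to 14.2 CPM in mondoa-mis embryos. The higher sum came mostly from mxtx1, which averaged 13.5 CPM in mondoa-mo and 6.24 CPM in mondoa-mis embryos (adjusted p = 0.0013). mxtx2 did not pass the test (adjusted p = 0.47), and SLC26A1 and GATA6 had too few counts to be tested. This sum does not stand for its layer either. Blastoderm markers summed to 2480 to 2661 CPM in mondoa-mo and 2463 to 2475 CPM in mondoa-mis embryos. Of these, nanog and tbxta rose by log2 fold changes of 0.16 and 0.69 (adjusted p of 0.033 and 0.025), and pou5f3 and sox19b did not pass the test. Germ plasm and oocyte markers summed to 667 to 727 CPM in mondoa-mo and 902 to 910 CPM in mondoa-mis embryos. Of the 6 germ plasm and oocyte genes 3 rose, and the lower sum came from buc alone, which averaged 363 CPM in mondoa-mo and 637 CPM in mondoa-mis embryos. Of 7 markers of differentiated tissues 3 were at 0 in every library, hbae1.1, ins and one MYL1 gene, and the sum was 1.47 to 2.12 CPM in mondoa-mo and 2 to 2.45 CPM in mondoa-mis embryos. The part of these layers in the values of the signalling genes was not tested, and in whole embryos fewer cells of a type and less RNA per cell cannot be told apart. Of 4 genes of the p53 response, cdkn1a rose (log2 fold change 0.53, adjusted p = 0.0042) and mdm2 fell (-0.20, adjusted p = 0.048, and 0.069 to 0.19 without any one library other than mondoa-mo replicate 2), the 4 genes' summed level being 869 to 940 CPM in mondoa-mo and 845 to 880 CPM in mondoa-mis embryos.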

How the data were processed

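RNA was extracted with TRIzol from pooled zebrafish embryos injected at the 1-cell stage, and mRNA libraries were read 50 nucleotides from each end. Per the paper's methods and the labels, the authors mapped read pairs with STAR 2.3.8 to GRCz11/danRer11 and deposited whole-number counts of uniquely mapped pairs per Ensembl 96 gene, using SAMtools. The strand setting of the counting is not given in the sources used here, and the mRNA kit does not mark strand, so overlapping antisense genes cannot be told apart.

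The deposited counts of 6 libraries, grouped by their labels, were tested in R 4.3.3 with edgeR 4.0.16 (filterByExpr, TMM, glmQLFTest, no covariate, Benjamini-Hochberg adjustment over 15511 genes, threshold 0.05). The authors used DESeq2. Here DESeq2 1.42.0, voom with group weights (limma 3.58.1), other scalings and count filters (10 counts in every library, 1 count in any), a replicate block and leaving out each library were the alternatives. The standard error is the size of the log2 fold change over the root of F. Intervals are at 95%. The test was tried on simulated counts. Gene symbols came from the study's lists for 3762 rows and otherwise from the reference gene names, where many are spelled in capitals. List symbols ending in a or b were matched by their base name where needed, and 4 partner symbols were not matched.

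The members, the lists of partners and markers, and the tests were chosen with earlier results of these data known. All members are named. Per-library values were given for identifier-ordered members that changed, significance-ordered members with a log2 fold change of 1 or more, pairs of relatives and others that the text describes. Of the other family genes and of each partner list, up to 3 changed genes with the largest log2 fold change in each direction were named, and genes beyond these were picked after their values were seen. BMP2 and BMP4 by reference name were left out of the families.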

Additional observations from a re-analysis of the deposited data

How the results depend on the processing

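The direction of every identifier-ordered and significance-ordered member with an adjusted p under 0.05 was the same under all alternatives run. Of the values of single members 636 kept their direction and side of the threshold, 16 of 7 genes passed it newly and 12 of 3 genes (mapk14a, fgfr1op and map2k2a) no longer did. The genes that passed newly in some alternatives missed the threshold by more in others. Their largest adjusted p over the alternatives was 0.19 for fgf20a and ptprfb, 0.21 for ptpra and 0.22 for ptpn4a. It was 0.28 for map3k5, 0.3 for acvr2aa and 0.31 for smad2. Signs turned only for members close to 0 that were not called. Without single libraries the log2 fold change was -0.23 to 0.10 for ptpn18, -0.26 to 0.38 for ptchd4 (0.27 without mondoa-mo replicate 1), -0.04 to 0.02 for map2k7, -0.01 to 0.10 for mapk8b, -0.01 to 0.10 for smad3b and -0.21 to 0.08 for map2k5. ptchd4 was at 0.01 with DESeq2 and mapk8b just below 0 (0.00 when rounded) with library size alone. Counts moved mostly with single libraries. Leaving out each library in turn gave 3119 to 5832 changed genes (1632 to 3039 higher, 1487 to 2793 lower), 5 to 14 changed identifier-ordered members (1 to 6 higher, 4 to 8 lower), 35 to 72 changed family genes (16 to 33 lower) and 32 to 57 changed partners (14 to 26 lower). The lowest of the 4 totals came without a mondoa-mis library and the highest without mondoa-mo replicate 3. Identifier-ordered members that rose were 1 in the main test and 2 with at least 10 counts in every library, 2 with at least 1 count in any library and 2 with the replicate block. Unscaled library sizes gave 2137 higher and 2870 lower genes, against 2621 and 2396 with TMM, and the median of all genes was -0.04. The cause of the other changes was not tested.

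The labels do not say whether the replicate numbers pair the libraries. Deviations from the group means correlated only weakly for libraries of the same number, at 0.0382, 0.0261 and 0.0473. Each mondoa-mo library still correlated best with its own number. With the number as a block 5281 genes and 10 identifier-ordered members changed, smad2, acvr2aa and ptprfb newly passed (adjusted p of 0.043, 0.03 and 0.0087) and mapk14a did not (0.073). Counts near the filter limit are too few to show a moderate difference at this depth. This holds for ngfb, szl, her3, mapk15, the FGF ligand genes of the list and the 7 members not tested.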
